A study of Mus musculus with 2 samples.

Results

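Pericytes and vascular smooth muscle cells are the mural cells of brain vessels, and 8 genes that mark them were examined for open chromatin in hippocampal tissue. The genes were Pdgfrb, Rgs5, Abcc9, Vtn, Notch3, Acta2, Tagln and Myh11, 8 of the 21755 protein-coding genes on chromosomes 1 to 19 and X. For each, every peak, footprint and listed run of bases was taken from the gene body with 50 kb on each side, in both libraries. Peaks were called promoter peaks where they reached into the 1 kb on either side of a coding gene's annotated transcription start, and distal otherwise. The data are DNase-seq, in which DNase I cuts accessible DNA, so that regulatory regions appear as peaks of cuts and short shielded stretches inside them as footprints. There is 1 group of 2 libraries, biological replicates 1 and 2, from layer of hippocampus of B6CASTF1/J mice labelled male and 25 days old. B6CASTF1/J is the first-generation cross of C57BL/6J and CAST/EiJ mice, no treatment or engineered allele is given, and the layer is not named. Both libraries cite a shared donor entry under separate tissue entries, and no label states that 2 animals were used. From the labels their spread cannot be called biological or technical, and the sex-linked peaks given below differ between them.

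Pericytes wrap capillaries beneath the basement membrane, and smooth muscle cells ring arterioles and set their diameter. Endothelial cells release PDGF-B, which recruits pericytes through the receptor encoded by Pdgfrb. Contact with endothelial Notch ligands acts on smooth muscle through Notch3 and the DNA-binding protein RBPJ, and the contractile genes Acta2, Tagln and Myh11 are classical targets of SRF with myocardin at CArG boxes. Mural cells are a small part of brain tissue, which is mostly neurons and glia. In bulk tissue, fewer cells of a type and less accessibility per cell cannot be told apart.

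Replicate 1 held 93545 peaks, 223251 footprints and 34.76 Mb of bases listed with a false discovery rate (FDR) under 0.05, and replicate 2 held 79144 peaks, 170016 footprints and 27.65 Mb. Peak values are the authors' signal heights, of unstated scaling, so the cuts behind a peak are unknown and no interval can be set on a value. They are set side by side as given and ranked only within a library. Xist had 0 peaks in replicate 1 and 4 in replicate 2, and of 4 Y-linked genes 4 and 1 had a peak, which goes against the male label of replicate 2. These counts differ between libraries that cite a shared donor entry, and whether 2 animals were used was not tested. With 1 group and 2 libraries no test between conditions exists, so the results describe each library beside the same count over all genes. Promoter peaks in both libraries stood at 5 of 6 neuron markers (Prox1, Slc17a7, Gad1, Rbfox3 and Snap25) and 4 of 5 astrocyte markers. They stood at 2 of 6 endothelial, 1 of 4 oligodendrocyte and 0 of 4 microglial markers. Of 5 fibroblast markers 3 had them (Col1a1, Dcn and Pdgfra, which also stands in the PDGF and Notch list). Over all protein-coding genes the share was 63.2%, and lists of 4 to 6 genes are too short to rank cell types.

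The sequences that carry the main distal findings are 5 sites matching the consensus of CTCF, the zinc-finger protein that marks chromatin loop anchors, in distal peaks near Acta2, Myh11 and Notch3. Each is printed with 14 bases on either side, on the strand that reads as the consensus, and the 12 matching bases are in capitals. Those at Myh11 and Notch3 lay in a peak of each library. The Acta2 site lay in a peak of replicate 2 alone, since the overlapping peak of replicate 1 began past it, at 34244312. Of 7 such matches near the 8 genes, the other 2, in strong peaks of Pdgfrb, are described with that gene and not printed. Positions are on mm10 (GRCm38.p6).
Acta2 intron 7, chr19:34244227-34244266, plus strand: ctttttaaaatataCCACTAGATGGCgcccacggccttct
Myh11 intron 40, chr16:14195584-14195623, minus strand: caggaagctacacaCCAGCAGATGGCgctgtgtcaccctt
Myh11 intron 9, chr16:14237488-14237527, plus strand: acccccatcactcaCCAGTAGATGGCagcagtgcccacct
Notch3, intergenic beyond its 3′ end, chr17:32073491-32073530, minus strand: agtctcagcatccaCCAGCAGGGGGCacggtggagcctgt
Notch3, intergenic beyond its 3′ end, chr17:32075332-32075371, plus strand: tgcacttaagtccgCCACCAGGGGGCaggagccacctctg
The middle of the match was covered by a footprint in both libraries at the 4 Myh11 and Notch3 sites, and at the Acta2 site in replicate 2 alone.

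Both strongest peaks inside the Notch3 gene are printed whole on the gene's own strand, because their longest footprints recurred almost base for base. Capitals mark the bases covered by a footprint in both libraries. The intron 2 stretch of 27 shared bases was covered from 32162219 to 32162247 in replicate 1 and to 32162245 in replicate 2. In it a CTCF match with 1 mismatch was found. The exon 24 stretch of 40 bases was covered from 32143347 to 32143388 in replicate 1 and to 32143386 in replicate 2, in coding sequence, and it held no match to any of the 9 motifs searched.
Notch3 intron 2 peak, chr17:32162181-32162340, minus strand: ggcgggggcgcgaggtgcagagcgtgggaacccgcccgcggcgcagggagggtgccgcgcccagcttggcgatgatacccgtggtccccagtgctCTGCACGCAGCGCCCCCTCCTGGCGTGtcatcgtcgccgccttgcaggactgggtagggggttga
Notch3 exon 24 peak, chr17:32143261-32143480, minus strand: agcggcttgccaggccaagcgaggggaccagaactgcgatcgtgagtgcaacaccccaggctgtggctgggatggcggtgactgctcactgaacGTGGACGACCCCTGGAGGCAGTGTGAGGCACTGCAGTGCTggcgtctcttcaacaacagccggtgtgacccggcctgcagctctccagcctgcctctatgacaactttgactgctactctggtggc

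For Rgs5, the only peaks in its window are 1 in the promoter and 1 in intron 1, and both are shown to set a proximal element seen in 1 library beside a distal element seen in both. In the promoter, capitals mark the 2 footprints of replicate 1. In the intron peak, capitals mark the bases that a footprint of either library covers, and 0 of these footprints were shared. The last capitals are only the first bases of an 18-base footprint of replicate 2, which ran on past the end of the peak. The promoter of Notch3 is printed because it was rich in CpG and yet held no listed base, and its capitals mark GGGCGG and its reverse complement, the GC box read by Sp and KLF factors. Promoter sequences are RefSeq's on GRCm38.p6, here the 250 bases before the start, and 5 of the 8 genes matched its table by symbol.
Rgs5 promoter, chr1:169655251-169655500, plus strand: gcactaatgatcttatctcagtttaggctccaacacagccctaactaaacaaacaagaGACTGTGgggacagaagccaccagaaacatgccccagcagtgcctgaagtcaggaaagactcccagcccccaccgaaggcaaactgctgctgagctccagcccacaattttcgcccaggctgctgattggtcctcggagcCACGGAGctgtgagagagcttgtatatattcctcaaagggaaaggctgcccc
Rgs5 intron 1 peak, chr1:169675306-169675460, plus strand: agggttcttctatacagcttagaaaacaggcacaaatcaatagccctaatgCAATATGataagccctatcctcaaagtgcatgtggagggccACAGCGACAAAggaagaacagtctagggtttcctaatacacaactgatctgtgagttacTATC
Notch3 promoter, chr17:32166891-32167140, minus strand: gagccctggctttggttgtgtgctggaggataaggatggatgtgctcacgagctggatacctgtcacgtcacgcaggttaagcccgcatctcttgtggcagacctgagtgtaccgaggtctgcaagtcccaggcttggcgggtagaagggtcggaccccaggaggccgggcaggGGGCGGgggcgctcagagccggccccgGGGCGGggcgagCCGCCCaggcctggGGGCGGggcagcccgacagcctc

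Peaks were scarce at the starts of the 8 genes. Over all protein-coding genes, 63.2% had a promoter peak in both libraries, 65.7% in replicate 1 and 64.5% in replicate 2. Of the 8 genes, 1 had a promoter peak in both libraries (Myh11), 1 only in replicate 1 (Rgs5) and 1 only in the library labelled male replicate 2 (Tagln). Pdgfrb, Abcc9, Vtn, Acta2 and Notch3 had none in either. Without replicate 1 or without replicate 2 the count is 2 of 8 each time, now in the library that remains. In the shorter peak list every peak holds a base with an FDR of at most 0.001. There 0 of 8 genes had a promoter peak in both libraries, Rgs5 keeping its peak in replicate 1 and Myh11 in replicate 2.

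The promoter peaks that were present were low. The Myh11 peak had a value of 0.756 in replicate 1 and 0.490 in replicate 2, a mean of 0.623 ± 0.188 (SD, n = 2), at percentiles 29.3 and 14.9 among the promoter peaks of each library. The Rgs5 peak had 0.664 at percentile 23.8 in replicate 1. The Tagln peak had 0.767 at percentile 34.8 in replicate 2, and its centre stood at −1.035 kb, at the far edge of the promoter window. The median value of a gene's highest promoter peak over all genes with a promoter peak was 2.17 in replicate 1 and 2.08 in replicate 2. All 4 values are thus below the middle of their library.

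The per-base lists reach below the called peaks and were read the same way. At least 1 listed base lay in the promoter window in both libraries at 4 of the 8 genes, against 64.1% of all genes. At Myh11, which encodes the smooth muscle myosin heavy chain, 225 bases of the window were listed in replicate 1 and 254 in replicate 2, with the lowest log10 FDR at −3.06 and −3.21. Rgs5 encodes a GTPase-activating regulator of G-protein signalling that is a standard pericyte marker. Its window held 346 listed bases in replicate 1 (lowest log10 FDR −4.33). The library labelled male replicate 2 had 25 (−1.37), so a weak trace stood where no peak was called. For comparison, the median over all genes was 774 listed bases in replicate 1 and 674 in replicate 2.

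At the other 2 genes with listed bases in both libraries, these lay far from the start. At Tagln, 30 and 82 bases were listed, the nearest 945 and 919 bp from the start. At Vtn, 107 and 104 bases were listed, the nearest 894 and 897 bp away, and they are the flank of a strong peak in the promoter window of the neighbouring Sarm1. Pdgfrb had 1 listed base, 33 bp from its start with a log10 FDR of −1.37, in replicate 1 alone. Abcc9, Acta2 and Notch3 had none in either library. The nearest listed base was 4304 and 4356 bp from the Notch3 start, 11066 and 11080 bp from the Acta2 start, and 85420 and 87767 bp from the Abcc9 start. The plot of FDR around the starts shows these cases together.

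**Figure D1:**
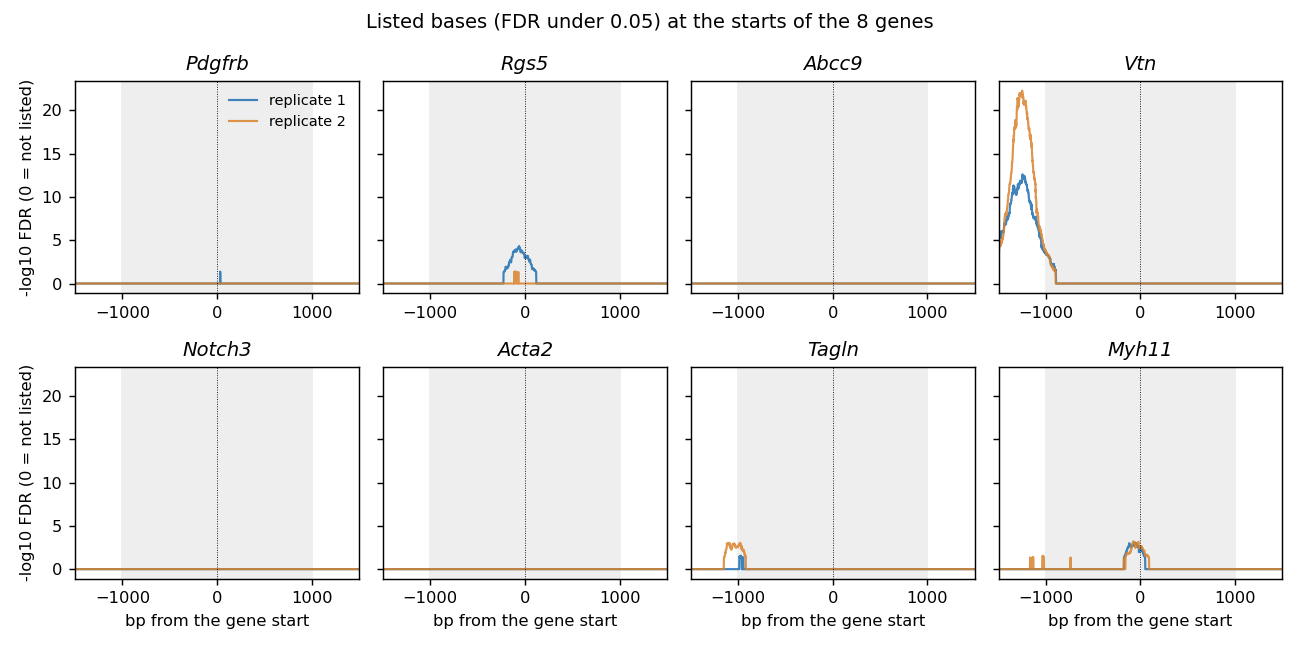
FDR of listed bases around the start of each of the 8 genes, as −log10 FDR against distance in bp (0 means not listed, the promoter window is grey, replicate 1 blue and replicate 2 orange). Myh11 and Rgs5 have a low mound over the start, Tagln and Vtn signal only near the upstream edge, and Abcc9, Notch3 and Acta2 none.

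Footprints in the promoter window were found in both libraries at 61.6% of all genes and at 1 of the 8, Myh11, with 1 in replicate 1 and 3 in replicate 2. None of the 3 footprints of replicate 2 in the Myh11 peak overlapped that of replicate 1. Rgs5 had 2 promoter footprints in replicate 1, the capitals in its printed promoter, and 0 in replicate 2. The other 6 genes had none in the window in either library. The Tagln peak of replicate 2 held 3 footprints, all beyond the window's edge.

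Base composition separated Notch3 from the other promoters. Within the 300 bases of the RefSeq promoter, Rgs5 had 6 CpG, Acta2 6, Vtn 9, Abcc9 16 and Notch3 25, against a median of 7 and quartiles of 3 and 20 over 32851 promoters. Of genes whose promoter had under 10 CpG, 22.0% had a promoter peak in both libraries, so 0 of the 3 CpG-poor members (Rgs5, Acta2 and Vtn) stands beside a low background. Of genes with at least 25 CpG, 95.6% had a promoter peak in both libraries and 96.0% a listed base there in both. Notch3 met that CpG threshold and had neither, in either library. Both thresholds were chosen after the values were seen, and Notch3 lies on the upper threshold exactly. The printed Notch3 promoter held 4 GC boxes, a motif found in 35.7% of promoters.

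All 8 genes had at least 1 distal peak shared by both libraries, against 75.2% of all genes. Their median length was 40110 bp, against 17410 bp over all genes, and a longer window can hold more peaks. In replicate 1 their windows held 76 peaks, of which 2 were at the genes' own promoters, 35 at promoters of other genes and 39 distal. In replicate 2 they held 61 peaks, of which 2, 26 and 33 fell in these classes. Distal peaks per gene ranged from 1 to 13 with a median of 4 in replicate 1, and from 1 to 15 with a median of 3 in replicate 2, against 3 and 3 over all genes. The map of peaks by distance shows how unequal the windows were.

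**Figure D2:**
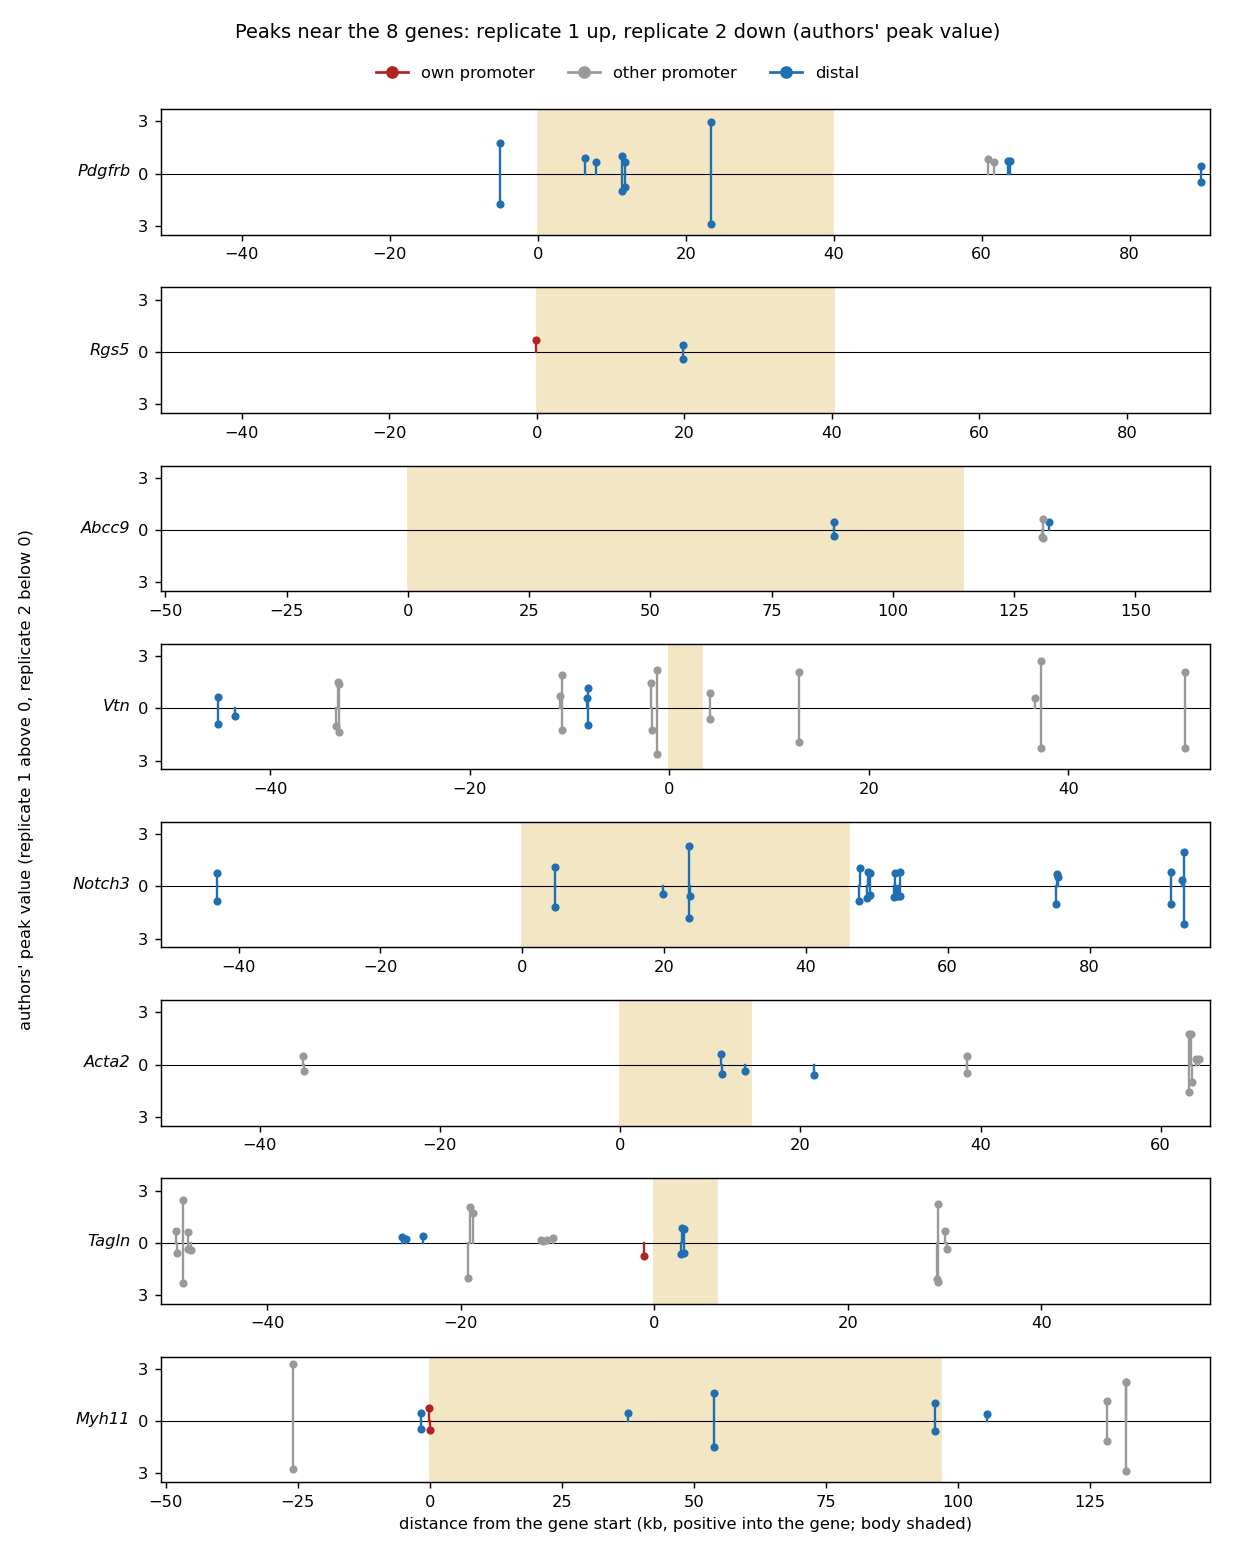
Every peak in the windows of the 8 genes, by distance of its centre from the gene start in kb (gene body shaded) and by the authors' peak value, replicate 1 upward and replicate 2 downward, with own promoters red, other promoters grey and distal peaks blue. Red marks stand at Rgs5, Tagln and Myh11 alone, and the tallest blue marks stand at Pdgfrb (2.94 and 2.87) and Notch3.

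Per 100 kb of window, Notch3 had 8.90 distal peaks in replicate 1 and 10.3 in replicate 2, the highest of the 8 in both. Pdgfrb followed in both with 6.43 and 3.57. The low end was Rgs5 with 0.713 in both, Abcc9 with 0.933 and 0.466, and Acta2 with 0.873 and 2.62, the last being low in replicate 1 alone. The median of the 8 was 2.72 and 2.25, against 2.39 and 1.96 over all genes, so as a group they lay near the middle.

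**Figure D3:**
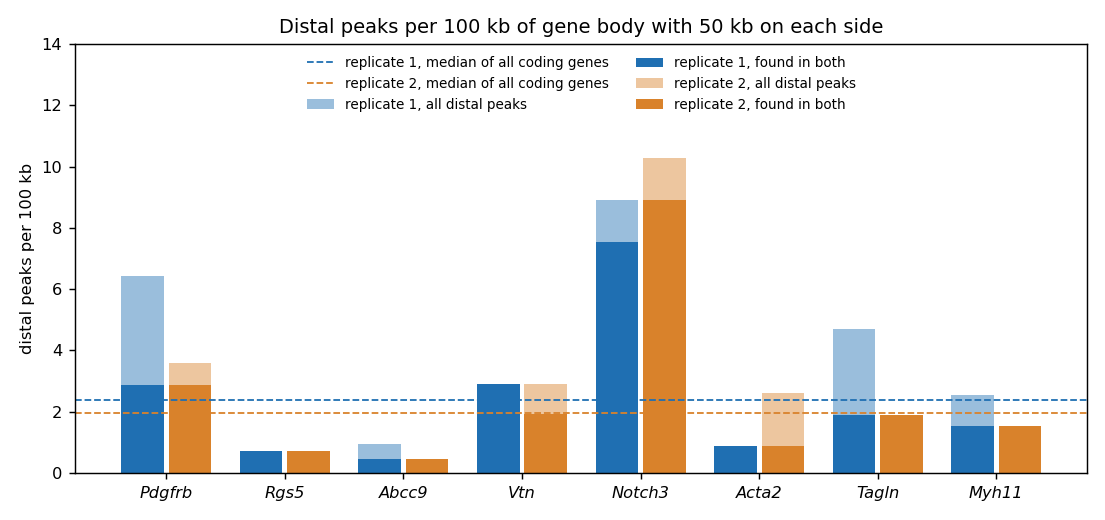
Distal peaks per 100 kb of gene body with 50 kb on each side (bars from 0, replicate 1 blue, replicate 2 orange, darker parts the peaks found in both libraries, dashed lines the medians of all protein-coding genes). Notch3 stands above 8 in both libraries, and Rgs5 and Abcc9 lie under both medians.

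By the height of the strongest distal peak, the order in replicate 1 was Pdgfrb (2.94), Notch3 (2.32), Myh11 (1.59), Vtn (1.14), Tagln (0.855), Acta2 (0.587), Abcc9 (0.466) and Rgs5 (0.389). In replicate 2 it was Pdgfrb (2.87), Notch3 (2.16), Myh11 (1.50), Vtn (0.941), Tagln (0.645), Acta2 (0.574), Rgs5 (0.425) and Abcc9 (0.348). The order was the same except that Abcc9 and Rgs5 changed places, so those neighbours do not differ beyond the spread between the libraries. For Notch3 and Acta2 the strongest peak was a different locus in each library, exon 24 and then the peak at 93.3 kb for Notch3, and intron 7 and then a peak called only in replicate 2 for Acta2.

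Pdgfrb encodes the PDGF receptor beta and spans 61045150 to 61085061 on the plus strand of chromosome 18. Its strongest peak was in intron 9, at 23.4 kb from the start, with 2.94 in replicate 1 and 2.87 in replicate 2 (mean 2.91 ± 0.0458, SD, n = 2), at percentiles 99.3 and 99.0 among distal peaks. The next was intergenic at −5.13 kb, with 1.76 and 1.74 at percentiles 95.9 and 94.4. Both held a CTCF match with its middle in a footprint in both libraries. A shared element in intron 1, at 11.4 kb, had 0.989 and 1.02, and its neighbour at 11.8 kb had 0.643 and 0.761. These 4 shared peaks differed little between the libraries, and none overlapped the promoter window.

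Pdgfrb also had peaks in 1 library alone. In replicate 1 there were 5, of which the strongest were in intron 1 at 6.36 kb (0.897) and in introns of Csf1r, the microglial receptor gene downstream, at 63.5 and 63.9 kb (0.714 and 0.721). None of these 5 had a listed base in replicate 2. The Csf1r promoter window likewise held peaks of 0.862 and 0.671 in replicate 1. The library labelled male replicate 2 had neither, with 28 bases listed under the first. Csf1r stands in the microglial list, in which 0 of 4 genes had a promoter peak in both libraries, and what part cell mixture has in this difference was not tested.

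Rgs5 (chr1:169655501-169695813, plus strand) had 1 distal peak, in intron 1 at 19.9 kb, with 0.389 in replicate 1 and 0.425 in replicate 2, at percentiles 28.1 and 31.7. Of its 155 bases, 46 and 152 were listed, and no footprint in it was shared. No motif of the 9 was found there. With 392 and 260 listed bases in 140 kb, 0.279% and 0.185% of the window, Rgs5 had the least accessible DNA of the 8 genes in both libraries. It also had no peak at any other gene's promoter in its window.

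Abcc9 (chr6:142587862-142702315, minus strand) encodes SUR2, the regulatory subunit of the vascular ATP-sensitive potassium channel. Its only distal peak inside the gene lay over coding exon 30, at 87.9 kb, with 0.466 and 0.348, at percentiles 38.9 and 19.5. The adjoining Kcnj8 encodes Kir6.1, the pore subunit that assembles with SUR2. The Kcnj8 promoter had a peak in both libraries, with 0.636 and 0.477 at percentiles 22.0 and 13.8. Thus of these channel partners, the pore gene had a low promoter peak in both libraries and the regulatory gene no listed base at its start. A further peak over coding sequence of Kcnj8, with 0.466, was called in replicate 1 alone.

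Vtn (chr11:78499091-78502324, plus strand), which encodes the adhesive matrix protein vitronectin, lies among genes with strong promoters. The nearest strong peak lay in the promoter window of Sarm1, at −1.27 kb from the Vtn start, with 2.20 in replicate 1 and 2.64 in replicate 2 and log10 FDR down to −12.6 and −22.3. With a promoter window of 2.5 kb this peak is counted for Vtn, although it also lies in the window of Sarm1, and the lists do not assign it to either gene. Promoter peaks in both libraries also stood at Slc46a1 (1.49 and 1.33), Sebox (0.848 and 0.593), Poldip2 and Tmem199 (2.06 and 1.95), Ift20 and Tnfaip1 (2.73 and 2.28) and Tmem97 (2.06 and 2.29). The body of Vtn, 3234 bp long, held no peak. Its strongest distal peak was over a coding exon of Sarm1 at −8.12 kb, with 1.14 and 0.941, and its most distant, at −45.2 kb with 0.629 and 0.890, lay wholly in repeat-masked sequence.

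Notch3 (chr17:32120820-32166852, minus strand) encodes the Notch receptor of vascular smooth muscle. Its coding exon 24 held a peak of 2.32 in replicate 1 and 1.79 in replicate 2 (mean 2.06 ± 0.372, SD, n = 2), at percentiles 98.3 and 94.8 among distal peaks. The printed peak carries 3 footprints in each library, and the 40 bases in capitals are those found in both. The intron 2 peak, at 4.59 kb, had 1.10 and 1.17 at percentiles 86.2 and 86.4 and is the nearest peak to the start. It is 73.1% G and C with 18 CpG in 160 bases. In replicate 2 alone a peak of 0.451 lay in intron 19 and a peak of 0.561 in intron 24, next to the exon 24 peak. All 24 bases of the intron 24 peak were also listed in replicate 1, and 0 of the intron 19 peak.

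Most of the distal peaks of Notch3 lay beyond its 3′ end. Over the noncoding gene Gm17276, from 47.6 to 53.3 kb, 5 loci were shared by both libraries, with values from 0.749 to 1.03 in replicate 1 and from 0.496 to 0.838 in replicate 2. All 5 were lower in the library labelled male replicate 2. A shared peak over the pseudogene Pdxk-ps at 75.3 kb went the other way, with 0.721 and 1.02. The farthest and strongest, at 93.3 kb, had 1.96 and 2.16 at percentile 97.0 in both, and its neighbour at 91.5 kb had 0.841 and 0.999. These last 2 hold the printed CTCF matches, which read in opposite orientation, on the minus and the plus strand.

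Acta2 (chr19:34241090-34255590, minus strand), the gene of smooth muscle alpha-actin, had its only shared distal peak in intron 7, at 11.2 kb, with 0.587 in replicate 1 and 0.516 in replicate 2. These values were at percentiles 54.3 and 45.6. The printed CTCF match lies in the peak of replicate 2, outside the narrower peak of replicate 1 that overlaps it. In replicate 2 alone there were peaks over coding exon 9 (0.393) and over a coding exon of Stambpl1 (0.574), the gene that runs alongside, and neither had a listed base in replicate 1. The strongest peak in the window was the Stambpl1 promoter, with 1.77 and 1.55. The promoter window of Fas, on the other side, had 0.502 and 0.374. Neighbouring promoters were thus called in both libraries while the start of Acta2 had no listed base.

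Tagln (chr9:45929619-45936058, minus strand) encodes transgelin, an actin-binding protein of contractile smooth muscle. Its strongest distal peak lay in intron 1 at 2.84 kb, with 0.855 and 0.645 at percentiles 76.5 and 61.2, and it held 6 footprints in replicate 1 and 1 in replicate 2. This peak is within 2.5 kb of an annotated start, so that with the wider promoter window Tagln gains a promoter peak in both libraries. Around it, promoters of Pcsk7 and Rnf214 (2.24 and 2.24), Sidt2 (2.06 and 2.03) and Pafah1b2 (2.44 and 2.33) were strong and nearly equal in both libraries. Upstream, 3 distal peaks with values from 0.212 to 0.403 were called in replicate 1 alone, and none had a listed base in replicate 2.

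Myh11 (chr16:14194535-14291372, minus strand) was the only gene of the 8 with a promoter peak in both libraries, and it had 3 shared distal peaks besides. The strongest was in intron 9 at 53.9 kb, with 1.59 and 1.50 (mean 1.54 ± 0.0668, SD, n = 2) at percentiles 94.4 and 91.8. The second, in intron 40 at 95.8 kb, had 1.02 in replicate 1 against 0.548 for the library labelled male replicate 2, a ratio of 1.86 that was the widest among the shared distal loci. Both carry a printed CTCF match. A low peak at −1.67 kb had 0.459 and 0.458. The promoter of the next gene, Fopnl, had the strongest peak of the window in replicate 1, with 3.27 and 2.73, and that of Marf1 the strongest in replicate 2, with 2.22 and 2.86. The window shared by Marf1 and Nde1 (1.17 and 1.15) was also called in both.

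Peaks of both libraries that overlapped were merged into 78 loci, of which 46 held a peak in both. Of 43 distal loci, 24 were in both, 13 only in replicate 1 and 6 only in replicate 2, and of 32 loci at other genes' promoters 21, 10 and 1. Over the 24 shared distal loci, the value in replicate 1 divided by that in replicate 2 ran from 0.703 to 1.86 with a median of 1.04, and 21 of 24 were within 1.5-fold. Over the 21 shared loci at other promoters it ran from 0.777 to 1.80 with a median of 1.12.

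**Figure D4:**
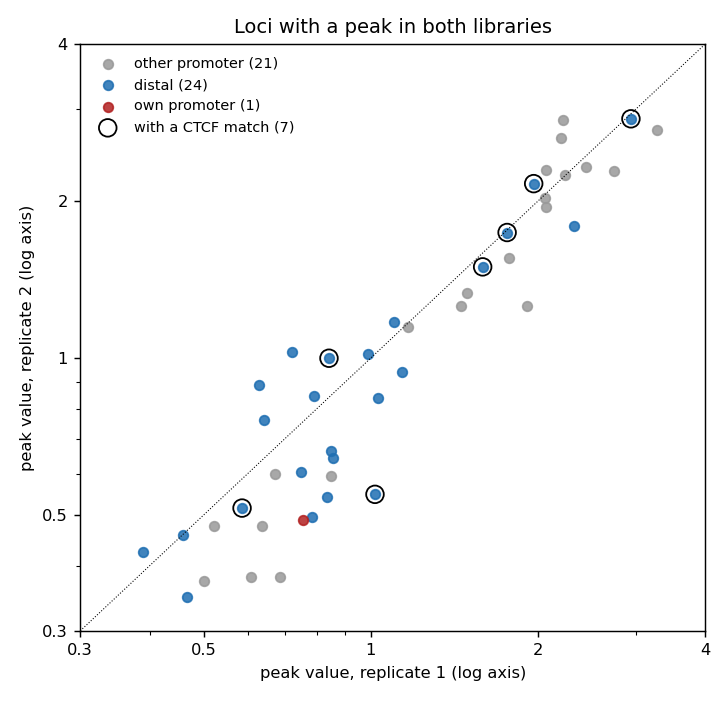
Peak value in replicate 2 against replicate 1 for the 46 loci called in both libraries (both axes logarithmic, dotted line equal values), distal loci blue, other promoters grey and the Myh11 promoter red, with rings on the 7 distal loci that hold a CTCF match. Of the 6 strongest distal loci, 4 carry a ring, and the Myh11 promoter lies low among the points. At the ringed Acta2 locus the match lies in the peak of replicate 2 alone.

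Counted by peak, 26 of 39 distal peaks of replicate 1 (66.7%) had a counterpart in replicate 2, against 51.5% of all 64243 distal peaks. In replicate 2 it was 27 of 33 (81.8%), against 64.8% of 52032. A base listed in the other library lay under 27 of 39 peaks of replicate 1 (69.2%, against 56.3%) and 29 of 33 of replicate 2 (87.9%, against 70.3%). A footprint was present in 34 of 39 (87.2%, against 66.6%) and 27 of 33 (81.8%, against 69.0%). The peaks near the 8 genes were also somewhat higher than distal peaks at large, with medians of 0.721 and 0.606 against 0.551 and 0.548, so height moved with these shares and its part in them was not tested. In each library 15 of the distal peaks lay inside the body of their gene.

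The windows held 209 footprints in replicate 1 and 143 in replicate 2, from 7 to 42 and from 7 to 46 bp long. Of these, 66 (31.6%) and 64 (44.8%) overlapped a footprint of the other library, close to the shares over all footprints of 30.0% and 39.4%. By gene, Vtn had the most footprints in both libraries (58 and 31) and Rgs5 the fewest (4 and 1), and Rgs5 and Abcc9 shared 0. Listed bases came to 28404 bp in 175 stretches in replicate 1 and 23634 bp in 148 stretches in replicate 2. Only 485 bp (1.71%) and 695 bp (2.94%) lay outside that library's peaks. The longest such stretch, 201 bp, was in the Acta2 window in replicate 2 and had no listed base in replicate 1.

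Of the 9 motifs, CTCF alone was set against peak height. An exact CTCF match was found in 7 of 43 distal loci, at Pdgfrb, Myh11 and Notch3 with 2 each and Acta2 with 1. All 7 loci were called in both libraries, but at Acta2 the match lay in the peak of replicate 2 alone. At 6 of the 7 the middle of the match lay in a footprint in both, and the same share over all peaks was not counted. The 7 loci had a median mean value of 1.54, from 0.551 to 2.91. The 17 shared distal loci without an exact match had 0.756, from 0.407 to 2.06, so the ranges overlap. Some of these 17 held a match with 1 mismatch. In 200 bp about the peak centre, a match with up to 1 mismatch was in 28.2% of the distal peaks of replicate 1 and 39.4% of replicate 2, against 13.2% and 20.5% of all distal peaks. Among all distal peaks the share was 39.4% and 57.6% in the strongest 10% and 10.3% and 16.4% in the others. Peak height and CTCF matches thus went together across the whole lists. In the windows of the mural genes, the share was 80.0% in each library among peaks in that strongest 10% (4 of 5 each). Among their other distal peaks it was 20.6% (7 of 34) and 32.1% (9 of 28). Within each height class these shares were above those of all distal peaks, on few peaks, and the difference was not tested. In the same 200 bp, Sp and KLF matches were in 17.9% and 12.1% of the distal peaks near the mural genes. The shares over all distal peaks were 8.16% and 9.0%. AP-1 matches were in 10.3% and 3.03%, against 6.75% and 7.01% of all. These differences were not tested either.

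Motifs of the regulators named in mural biology were counted in the same way. The CArG box of SRF, taken as its exact consensus with no mismatch allowed, had 0 matches in the 78 loci and 0 in the 5 RefSeq promoters. It was found in 0.774% and 0.844% of all distal peaks and 1.63% of all promoters. Tagln and Myh11 were not among these 5 promoters, and variant boxes were not searched, so a lack of CArG boxes is not shown. The RBPJ core TGGGAA, searched on both strands, matched 28 times in the loci, 13 of them in distal loci. The middle of the match lay in a footprint 0 times in replicate 1 and 1 time in replicate 2, in intron 1 of Pdgfrb. It was found in 20.5% and 30.3% of the distal peaks near the 8 genes and in 21.3% and 21.1% of all. The TEAD core GGAATG had 4 matches in distal loci and 0 in a footprint. This core was found in 7.69% and 9.09% of the distal peaks near the 8 genes against 11.6% and 11.5% of all. How often RBPJ and TEAD matches lie in a footprint over all peaks was not counted, so these footprint counts say nothing of binding. The printed Notch3 intron 2 peak holds an RBPJ core outside its footprints. Of the 5 RefSeq promoters, 3 (Abcc9, Acta2 and Vtn) had both an RBPJ core, found in 25.6% of all promoters, and a TEAD core, found in 14.7%. No footprint was called in the promoter windows of these 3 genes, so the footprints say nothing of the matches there.

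Wider lists of related genes show which part of the mural programme had accessible starts. Of 16 further pericyte genes, 5 had a promoter peak in both libraries, 2 only in replicate 1 (Mcam and Foxc1) and 9 in neither. The 5 were Kcnj8, Foxf2, Tbx18, Ednra and Gja4. Gja4, which encodes connexin 37, had 0.678 and 0.909, Tbx18, a transcription factor of mural cells, 0.841 and 0.657, and Foxf2, a transcription factor of brain pericytes, 0.806 and 0.541. The 9 without any were Cspg4, Anpep, Higd1b, Ndufa4l2, Atp13a5, Cox4i2, Art3, Heyl and S1pr3.

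Of 14 further contractile genes, 8 had a promoter peak in both libraries, 1 in replicate 1 alone (Des) and 5 in neither (Cnn1, Lmod1, Pln, Actg2 and Casq2). By the mean of both libraries, the highest were at Tpm1, a tropomyosin gene also used outside muscle, with 4.01 and 5.05, Itga8, an integrin alpha chain, with 2.19 and 2.91, and Tpm2 with 1.82 and 2.09. In replicate 1 Smtn, with 1.84, was level with Tpm2. Myl9, Mylk, Smtn, Cald1 and Synpo2 were the other 5. Together 13 of the 30 further mural genes had a promoter peak in both libraries (43.3%), under the 63.2% of all genes. A shared distal peak was present at 29 of 30, against 75.2% of all genes. A longer window can hold more peaks, and the lengths of these 30 genes were not set beside those of all genes.

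The partners of these genes in signalling and transcription were mostly accessible. Of 13 PDGF and Notch genes, 11 had a promoter peak in both libraries (84.6%, against 63.2% of all genes). Notch1 was called only in replicate 1 and Dll4 only in replicate 2. By the mean, the highest were Rbpj (4.90 and 4.01), the DNA-binding protein of the Notch pathway, Maml1 (3.13 and 3.07), its coactivator, and Hey1 (2.69 and 3.24), a target. The ligand genes Pdgfb (1.76 and 1.73) and Jag1 (1.56 and 1.23) and the receptor gene Notch2 (2.55 and 2.38) had promoter peaks in both libraries, whereas Pdgfrb and Notch3 had none. All 4 genes of SRF and its cofactors had 1 in both, with Mrtfa (3.43 and 3.69), Mrtfb (2.90 and 2.64) and Srf (2.32 and 2.64) high. Myocd, the cofactor of smooth and cardiac muscle, was lower at 0.749 and 0.432. Several of these genes are expressed in many cell types, and the lists do not say in which cells of the tissue a promoter was accessible.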

How the data were processed

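DNase-seq peaks, footprints and per-base FDR runs of 2 libraries, on mm10 per the file headers, were used as deposited. Per those headers each list was made from that library's own alignments. Aligner, callers and filters: not given in the sources used here. Peak heights are signal values set by the authors, scaling unstated. FDR entries (p-value type) were deposited for bases under 0.05. GENCODE M21 supplied the genes, and GRCm38.p6, which is mm10, the sequence. Overlap of at least 1 bp counted as shared. Intervals were handled in Python 3.11.15 (numpy 2.4.6, pandas 2.3.3, pysam 0.24.0), plots with matplotlib 3.10.9, and the overlap code was tested on simulated data. Motifs were searched on both strands, and a match counted as footprinted when a footprint covered its middle base. The motifs were RBPJ (TGGGAA), TEAD (GGAATG), Sp and KLF (GGGCGG), FOX (TGTTTAC), AP-1 (TGANTCA), and by name the CArG box, MEF2, CTCF and NFI. No test was made, for want of a second group. The members and lists were chosen with earlier results of these data known. Named were the 8 genes, neighbours whose promoter window held a peak in both libraries, each gene's strongest distal peaks, and the 3 highest genes of each list; other names were chosen after their values were seen. Alternatives were the other peak list, windows, overlaps and FDR threshold, and each library alone.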

Additional observations from a re-analysis of the deposited data

How the results depend on the processing

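Of 32 alternative values, 19 stayed near the value given (a count within 1.5 times) and 13 did not. The number of the 8 genes whose promoter had peaks in both libraries, 1, became 0 in the shorter peak list. It became 3 (Vtn, Tagln and Myh11) with a promoter window of 2.5 kb. Without replicate 1 or without replicate 2 it was 2 each time, as a count in the library that remained. The number of distal peaks, 36 as the mean of the libraries, ranged from 33 to 39 when replicates were left out in turn, and was 15 in the shorter list and 15 in the gene bodies alone. Distal peaks found in both libraries, 26.5, were 26 counted in replicate 1 and 27 counted in replicate 2. Each of these counts still uses the other library, so neither leaves a replicate out. The number was 10.5 in the shorter list and 12 in the bodies alone. Footprints, 176, ranged from 143 to 209, and were 74.5 with 10 kb on each side and 31.5 in the bodies alone. Listed bases, 26019 bp, ranged from 23634 to 28404, and were 9735.5 bp with 10 kb on each side, 4102.5 bp in the bodies alone and 14632 bp at an FDR of at most 0.001. Narrower windows and stricter lists hold fewer features by construction. The 13 of 30 further mural genes were 13 in replicate 2 alone and 16 in replicate 1 alone, with 10 in the shorter list and 15 at 2.5 kb. No paired analysis was possible because there is 1 group with no second condition. Depth is unknown, so a start without a listed base is not shown to be closed.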
